A study of Mus musculus with 12 samples.

Results

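The genes described here are 10 markers of endothelium, the cell layer that lines blood vessels: Pecam1, Cdh5, Emcn, Eng, Plvap, Cav1, Ehd3, Apln, Aplnr and Esm1. They were taken by gene symbol from a table of read counts for 37681 mouse genes. All 10 were present and all 10 had enough reads to be tested, among 19399 genes tested. The RNA came from a thin outer slice of kidney cortex of male C57BL/6 mice, 18 months old and untreated. TG+ mice (3 animals) carry the transgene γ-HIF1αM3, named TRACK or GGT-HIF1aM3 in the labels, which expresses a mutated, constitutively active HIF1α in the renal proximal tubules. TG− mice (3 animals) are wild-type littermates without the transgene. Both kidneys of each mouse were sequenced as separate libraries, and the 2 libraries of a mouse were summed. The TG+ animals are numbered 43-29, 43-49 and 43-75, and the TG− animals 43-26, 43-50 and 43-76.

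Kidney endothelium differs by place. Glomerular capillaries are fenestrated and filter the plasma, peritubular capillaries carry away what the tubules reabsorb, and arteries, veins and lymphatics have gene programs of their own. Hypoxia inducible factors act on vessels mainly through secreted ligands that neighbouring endothelial cells sense, and sprouting endothelium is led by tip cells with a characteristic set of secreted factors. The transgene is driven in tubule cells, so the endothelium of these mice is not the cell type that is meant to express it. The markers were therefore read as a measure of how endothelial transcripts in the slice differ between TG+ and TG− cortex.

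Libraries held between 21888584 and 33704850 reads on genes, and mice between 48052131 and 60506785. Levels are given as CPM, the usual library-scaled counts, corrected with TMM factors. A gene is said to rise or fall where its p, adjusted by Benjamini-Hochberg over all genes tested, was under 0.05 in the quasi-likelihood test of edgeR. The study used a stricter threshold, which asks for an adjusted p under 0.01 together with a change of more than 2-fold up or to less than 0.5 of the TG− level. The slice held kidney cortex by its markers: 20 proximal tubule genes summed to between 42975 and 45235 CPM in TG+ mice and to between 56958 and 62149 CPM in TG− mice. In bulk tissue, fewer cells of a type and less RNA per cell cannot be told apart, and this applies to every difference below.

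Of the 10 markers, 9 rose in TG+ cortex and 0 fell, while 15.4% of all genes tested were called higher. The log2 fold changes of the 10 genes had a median of 0.60, against 0.01 over all genes tested. For the same 9 genes each TG+ mouse lay above each TG− mouse, an arrangement found for 23.4% of all genes. The threshold of the study was passed by 1 marker, Apln, and by 3.98% of all genes, or 3.77% on the side of higher values. Most of the markers differed by between 1.33-fold and 1.71-fold, Aplnr by 2.09-fold and Apln by 6.13-fold. Esm1 was the marker that did not pass.

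**Figure D1:**
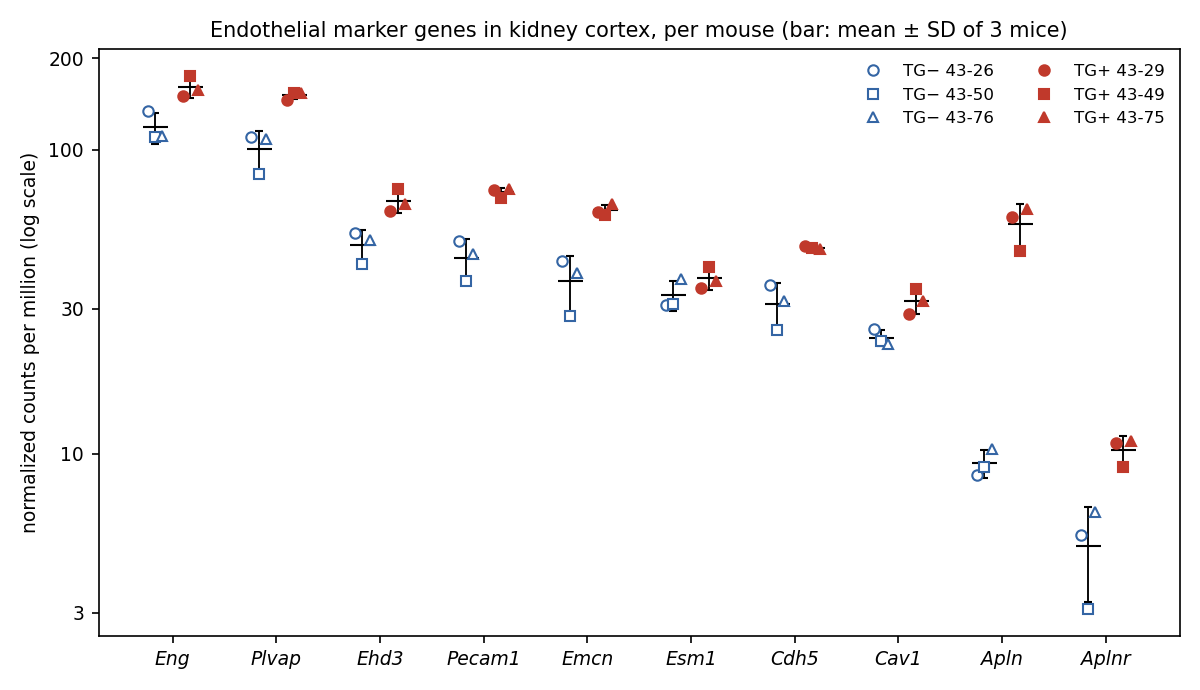
CPM (vertical axis, log scale) of each marker gene (horizontal axis) in the 3 TG− mice (open blue symbols) and 3 TG+ mice (filled red symbols), with the mean ± SD of each group in black. Every gene but Esm1 has its 3 TG+ mice above its 3 TG− mice, and Apln has the widest gap.

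Pecam1 (ENSMUSG00000020717, GRCm38 chromosome 11 from 106654217 to 106750628, minus strand) encodes PECAM1, or CD31, an adhesion molecule of endothelial junctions that platelets and leukocytes also carry. Its level was 73.7, 69.6 and 74.0 CPM in the TG+ mice 43-29, 43-49 and 43-75. In the TG− mice 43-26, 43-50 and 43-76 it was 50.1, 37.0 and 45.4 CPM. The TG+ mice were close to each other, and the lowest value of all was that of 43-50. Pecam1 rose from 44.2 ± 6.63 to 72.4 ± 2.49 CPM (SD, n = 3 mice each), or by 0.71 ± 0.10 on the log2 scale (standard error; adjusted p = 0.00257 from edgeR). Myeloid genes, of which 7 of 10 rose, are given with the other cell types. Platelet genes were read here because platelets carry PECAM1. Of 7 such genes 5 were tested, with 0 higher and 1 lower, and their summed level was 7.03 to 8.25 CPM in TG+ mice and at least 8.94 CPM in TG− mice. Itga2b, the platelet integrin chain, made up most of that sum and fell by 0.63 on the log2 scale (6.76 CPM in TG− and 4.38 CPM in TG+ mice, adjusted p = 0.00481 from edgeR). The other 4 stood near or under 1 CPM and were not called: the log2 fold change was 0.79 for Pf4 and 0.64 for Gp1bb, and -0.08 for Gp1ba and -0.02 for Ppbp. The part of platelet RNA in the Pecam1 difference was not tested.

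Cdh5 (ENSMUSG00000031871, GRCm38 chromosome 8 from 104101625 to 104144511, plus strand) encodes VE-cadherin, the adherens junction cadherin of endothelium. It was measured at 48.1, 47.6 and 47.2 CPM in TG+ animals, listed as for Pecam1, and at 35.9, 25.6 and 31.7 CPM in the TG− mice. The 3 TG+ values were nearly equal (SD 0.438), whereas the TG− values spread more widely (SD 5.21). Cdh5 rose by 0.62 on the log2 scale (standard error 0.11, adjusted p = 0.00653 from edgeR), or 1.53-fold.

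Emcn (ENSMUSG00000054690, GRCm38 chromosome 3 from 137341067 to 137432185, plus strand) encodes endomucin, a sialoglycoprotein of capillary and venous endothelium. The TG+ mice had 62.3, 60.9 and 66.3 CPM and the TG− mice 43.1, 28.4 and 39.4 CPM. No value of a group fell within the range of the other, and 43-50 was again lowest. Its rise of 0.77 ± 0.14 on the log2 scale (standard error; adjusted p = 0.00616 from edgeR) was the largest among the markers after those of the apelin genes. Without mouse 43-50 it was 0.61, and that of Pecam1 was 0.60, both still called.

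Pecam1 and Cdh5 were also read within a list of 11 genes of endothelial junctions, several of which epithelial cells express too. In that list 4 rose and 0 fell, and the median log2 fold change was 0.07. Besides Cdh5 and Pecam1 the risen genes were Jam2 (1.00 on the log2 scale, 13.9 to 17.1 CPM in TG+ and 7.06 to 7.82 CPM in TG− mice) and Esam (0.66), both immunoglobulin-like adhesion molecules. Cd99l2 was lowest, at -0.11 (adjusted p = 0.14 from edgeR).

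Eng (ENSMUSG00000026814, GRCm38 chromosome 2 from 32646595 to 32682669, plus strand) encodes endoglin, a co-receptor for BMP and TGFβ ligands. It drew the most reads of the 10 genes, with 149.8, 175 and 157 CPM in the TG+ mice and 134, 110.0 and 111 CPM in the TG− mice. The gap between the groups was narrow, since 43-26 at 134 CPM lay just below 43-29. Eng rose by 0.44 on the log2 scale (standard error 0.10, adjusted p = 0.0130 from edgeR), but without the TG− mouse 43-76 it no longer passed (0.39, adjusted p = 0.0556 from edgeR). Fpgs, on the opposite strand, shares 61 exonic bases with Eng and itself rose by 0.36. Whether strand was used in counting is not given in the sources used here, so reads of that stretch are uncertain. Cdh5, Plvap, Esm1 and Cav1 also overlap a gene on the opposite strand (Gm29682, Gtpbp3, Gzmk and Gm15581), in each case without shared exonic bases.

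Of 13 genes of endoglin and its signalling axis, 6 rose and 0 fell, with a median log2 fold change of 0.25. Without mouse 43-76 the number was 3. Id1, a target of BMP signalling that encodes an inhibitor of basic helix-loop-helix factors, rose most (1.28, from 8.90 ± 0.987 to 21.7 ± 2.88 CPM, SD, n = 3). Id3 (0.75) and Acvrl1 (0.50), the type I receptor that pairs with endoglin, also rose. Smad5, at -0.06, had the lowest value of the list (adjusted p = 0.574 from edgeR).

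Plvap (ENSMUSG00000034845, GRCm38 chromosome 8 from 71497765 to 71511752, minus strand) encodes the protein of the diaphragms that close fenestrae and caveolae, and in the kidney it marks peritubular rather than mature glomerular capillaries. The TG+ mice had 146, 153 and 153 CPM and the TG− mice 110.3, 83.3 and 108 CPM. All TG+ mice lay above the highest TG− mouse, 43-26. The rise was 0.58 on the log2 scale (standard error 0.10, adjusted p = 0.00606 from edgeR), and 0.46 without 43-50.

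Cav1 (ENSMUSG00000007655, GRCm38 chromosome 6 from 17306335 to 17341452, plus strand) encodes caveolin 1, the scaffold of caveolae, which fat cells and smooth muscle also make in quantity. Its level was 28.9, 34.8 and 31.7 CPM in TG+ and 25.7, 23.4 and 22.9 CPM in TG− mice. It rose from 24.0 ± 1.48 to 31.8 ± 2.99 CPM (SD, n = 3), or by 0.41 on the log2 scale (standard error 0.08, adjusted p = 0.0104 from edgeR). This was the smallest change among the 9 markers that rose, and single libraries of the 2 groups overlapped by a small margin, at 26.05 CPM for the lowest TG+ library and 26.07 CPM for the highest TG− library.

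Fat cell transcripts were present in some of the slices. Reads of Adipoq, the fat cell hormone adiponectin, numbered 370 in 43-49, 239 in 43-75 and 99 in the TG− mouse 43-50, and 0 in 43-29, 43-26 and 43-76. Of 5 fat cell genes, 1 rose (Fabp4, at 0.81, which capillary endothelium also expresses), and their summed level was 29.2 to 65.4 CPM in TG+ and 21.3 to 25.7 CPM in TG− mice. Without 43-29, 2 of these genes rose. Lep, the highest of them, had a log2 fold change of 4.09 that did not pass (adjusted p = 0.0597 from edgeR). Among the 3 mice without Adipoq reads, Cav1 was 28.9 CPM in the TG+ mouse and 25.7 and 22.9 CPM in the TG− mice. The part of fat cell RNA in the Cav1 difference was not tested.

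Ehd3 (ENSMUSG00000024065, GRCm38 chromosome 17 from 73804134 to 73832094, plus strand) encodes an ATPase of endocytic recycling that within the kidney is largely restricted to glomerular endothelium. It was found at 62.7, 74.2 and 66.0 CPM in TG+ mice and at 53.3, 42.1 and 50.5 CPM in TG− mice. The TG+ and TG− ranges were apart, and 43-50 was the lowest mouse. Ehd3 rose 1.39-fold (0.48 on the log2 scale, standard error 0.10, adjusted p = 0.0115 from edgeR).

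Cav1 and Ehd3 belong to families that act on the same membranes. Of 12 genes of the caveola coat and the EHD ATPases, 10 were tested, and 7 rose and 2 fell. Cavin3 (1.18) and Cavin1 (0.85, from 36.4 ± 2.98 to 65.6 ± 3.50 CPM, SD, n = 3), which encode coat proteins of caveolae, headed the list. Ehd2, the ATPase of the caveola neck, rose by 0.56 and Ehd4 by 0.51. Ehd1, which serves recycling in most cells, fell by 0.28, and Pacsin2, a membrane-bending protein, by 0.25.

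Apln (ENSMUSG00000037010, GRCm38 chromosome X from 48025146 to 48034853, minus strand) encodes apelin, a secreted peptide of sprouting endothelium that acts on a G protein-coupled receptor. With 60.2, 46.3 and 64.0 CPM in TG+ mice and 8.48, 9.02 and 10.4 CPM in TG− mice, it showed the widest separation of the 10 genes. The lowest TG+ library, at 44.1 CPM, was far above the highest TG− library, at 11.2 CPM. Apln rose from 9.28 ± 0.966 to 56.9 ± 9.32 CPM (SD, n = 3), or by 2.61 ± 0.14 on the log2 scale (standard error; adjusted p = 2.13e-05 from edgeR). Leaving out single mice gave values from 2.51 to 2.74. By the size of its log2 fold change Apln ranked 226 of 19399 genes, counted from the highest.

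Aplnr (ENSMUSG00000044338, GRCm38 chromosome 2 from 85136225 to 85139923, plus strand) encodes the apelin receptor. It drew the fewest reads of the 10 genes, with 10.9, 9.04 and 11.0 CPM in TG+ mice and 5.38, 3.08 and 6.41 CPM in TG− mice. These levels rest on 513 to 553 reads per TG+ mouse and 176 to 313 per TG− mouse. The spread in TG− was wide for the level, as 43-76 had more than 43-50 by a factor of 2. Aplnr rose by 1.06 on the log2 scale (standard error 0.24, adjusted p = 0.0147 from edgeR). The call was lost without the TG+ mouse 43-75 (1.00, adjusted p = 0.0513 from edgeR), and the value was 0.80 without 43-50. Aplnr passed the threshold of the study in several of the alternative fits, though not in the fit used here.

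Apela, the other ligand of this receptor, had too few reads to be tested.

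Esm1 (ENSMUSG00000042379, GRCm38 chromosome 13 from 113209659 to 113218098, plus strand) encodes endocan, a secreted proteoglycan that, like apelin, is typical of tip cells. The TG+ mice had 35.1, 41.1 and 37.0 CPM and the TG− mice 30.8, 31.2 and 37.7 CPM. The groups overlapped, since 43-76 lay above the TG+ mice 43-29 and 43-75. On the log2 scale the difference was 0.18 (95% interval -0.04 to 0.41, standard error 0.10, adjusted p = 0.195 from edgeR). The exact permutation test, 2-sided over 20 assignments, gave p = 0.3, where 0.1 is the smallest possible. Esm1 also had the largest ratios between the kidneys of a single mouse, 1.47 and 1.43, with 36.4 and 24.9 CPM in 43-26 and 26.1 and 37.4 CPM in 43-50.

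For most of the other markers the kidneys of a mouse were closer. The higher kidney exceeded the lower by a median factor of 1.04 for Ehd3, 1.05 for Eng, 1.07 for Apln and 1.10 for Pecam1 over the 6 mice. Aplnr had a median factor of 1.31, above that of Esm1 at 1.20. For 8 of the 10 markers all 6 TG+ libraries were above all 6 TG− libraries, which held for 13.4% of all genes. The exceptions were Esm1 and Cav1.

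The sequences before the start sites of Apln, Esm1 and Cav1 are shown because these genes had the largest change, no called change and the smallest called change. They are the 250 bases upstream of the RefSeq start site on GRCm38.p6, written 5′ to 3′ on the strand of the gene. Capitals mark the core letters of the hypoxia response element, ACGTG or GCGTG, searched on both strands (CACGT and CACGC on the strand shown).
Apln, chrX:48034854-48035103, minus strand: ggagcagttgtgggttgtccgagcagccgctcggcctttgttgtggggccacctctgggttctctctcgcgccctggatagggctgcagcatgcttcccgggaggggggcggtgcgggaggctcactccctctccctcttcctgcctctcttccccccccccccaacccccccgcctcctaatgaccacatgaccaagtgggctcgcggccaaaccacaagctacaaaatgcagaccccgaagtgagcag
Esm1, chr13:113209409-113209658, plus strand: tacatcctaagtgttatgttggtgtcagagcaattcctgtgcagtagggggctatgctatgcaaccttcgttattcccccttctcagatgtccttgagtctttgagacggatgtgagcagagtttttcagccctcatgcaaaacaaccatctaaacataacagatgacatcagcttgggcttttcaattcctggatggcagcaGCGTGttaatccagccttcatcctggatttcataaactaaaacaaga
Cav1, chr6:17306085-17306334, plus strand: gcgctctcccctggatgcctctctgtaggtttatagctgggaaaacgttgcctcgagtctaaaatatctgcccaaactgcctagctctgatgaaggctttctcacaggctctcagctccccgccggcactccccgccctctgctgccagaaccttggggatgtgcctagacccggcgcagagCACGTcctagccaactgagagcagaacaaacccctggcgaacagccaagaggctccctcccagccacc

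The window of Apln held no match, that of Esm1 held GCGTG at -47 and that of Cav1 held CACGT at -68 from the start site. The RefSeq table had windows for 6 of the 10 markers (7 windows, since Cav1 has 2), and 3 of the 7 held a match, as did 38.6% of the 32851 windows of all genes. The third match was in Emcn, at -11, and the windows of Eng, Ehd3 and the other Cav1 start held none. Windows for Pecam1, Cdh5, Plvap and Aplnr were not used here. A match of these letters is a description of the sequence and not a binding site.

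To place the markers among other endothelial genes, 30 genes that most endothelial cells express, none of them among the 10, were read in the same fit. Of the 30, 27 rose and 0 fell, and their median log2 fold change was 0.66, close to the 0.60 of the markers. The largest was that of Nostrin (1.12, from 1.89 ± 0.648 to 4.10 ± 0.611 CPM, SD, n = 3), which encodes a trafficking protein of endothelial nitric oxide synthase. Nos3, the synthase itself, rose by 0.92, the transcription factor gene Sox7 by 0.84 and Cyyr1 by 0.80. Ramp2, which encodes a partner of the adrenomedullin receptor, had the lowest value (-0.01, 69.1 ± 1.41 against 69.5 ± 2.79 CPM, SD, n = 3). The genes not called were Ramp2, the tight junction gene Cldn5 (0.24) and the transcription factor gene Tal1 (0.52). With single mice left out, between 19 and 27 rose.

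**Figure D2:**
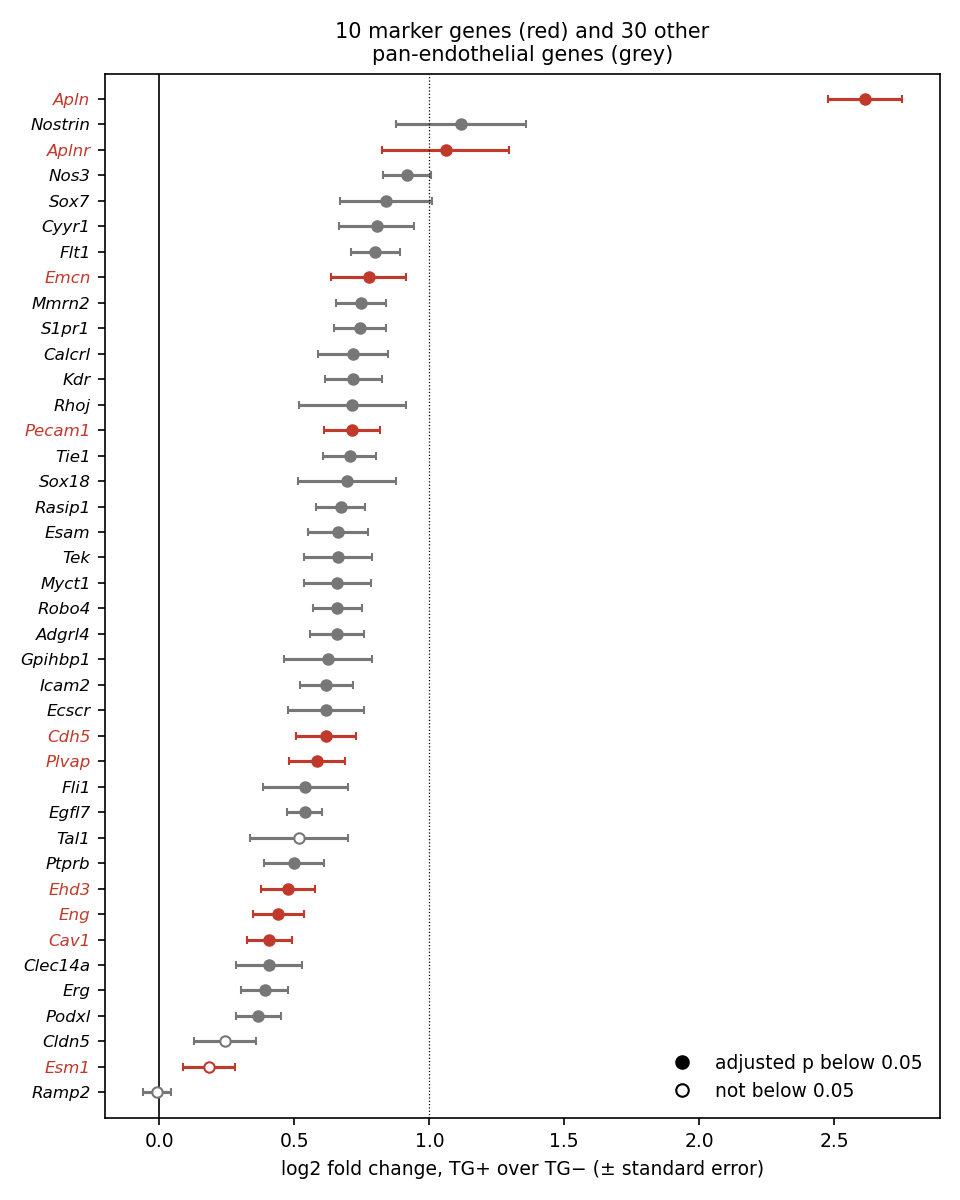
Log2 fold change of TG+ over TG− (horizontal axis) with its standard error for the 10 markers (red) and 30 other pan-endothelial genes (grey), ordered by size. Filled points have an adjusted p below 0.05, and the dotted line marks a 2-fold change. Apln, at 2.61, stands apart from the other genes, and Esm1, at 0.18, is next to the lowest.

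The level of each marker was then set against the mean log2 CPM of these 30 genes in the same mouse. That mean was 4.39, 4.45 and 4.38 in the TG+ mice 43-29, 43-49 and 43-75, and 3.95, 3.60 and 3.76 in the TG− mice 43-26, 43-50 and 43-76. Relative to it, Cdh5 differed between the genotypes by -0.01 on the log2 scale, Plvap by -0.04, Pecam1 by 0.09 and Emcn by 0.16, each with overlapping groups. For Aplnr the difference was 0.48, and its groups also overlapped. With single mice left out, the difference ran from 0.26 (without 43-50) to 0.70 (without 43-76) for Aplnr, from 0.07 (without 43-50) to 0.22 (without 43-76) for Emcn and from 0.05 (without 43-50) to 0.14 (without 43-49) for Pecam1. Those of Cdh5 (-0.05 to 0.02) and Plvap (-0.08 to 0.02) took both signs, Plvap being above 0 without 43-76.

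For 5 of the 10 markers the relative levels of the groups did not overlap, 1 of them higher and 4 lower in TG+. Over all genes tested, 4.43% had every TG+ mouse above every TG− mouse on this scale and 70.9% had every TG+ mouse below, since the reference genes themselves were higher in TG+. A place on the lower side was thus that of most genes. Apln was higher in TG+ relative to the other endothelial genes, by 1.97 on the log2 scale (1.41 ± 0.28 against -0.56 ± 0.27, SD, n = 3). The difference was negative for the other 4, at -0.16 for Ehd3, -0.19 for Eng, -0.23 for Cav1 and -0.45 for Esm1. For Esm1 the relative level was 0.83 ± 0.09 in TG+ and 1.28 ± 0.25 in TG− mice (SD, n = 3). With single mice left out, the difference kept its sign for each of these 5 and ran from 1.82 to 2.13 for Apln and from -0.59 to -0.35 for Esm1. A 2-sided exact permutation test gave p = 0.1 for each of the 5, the smallest that 3 against 3 mice allow, and 0.2 after adjustment over the 10 markers.

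**Figure D3:**
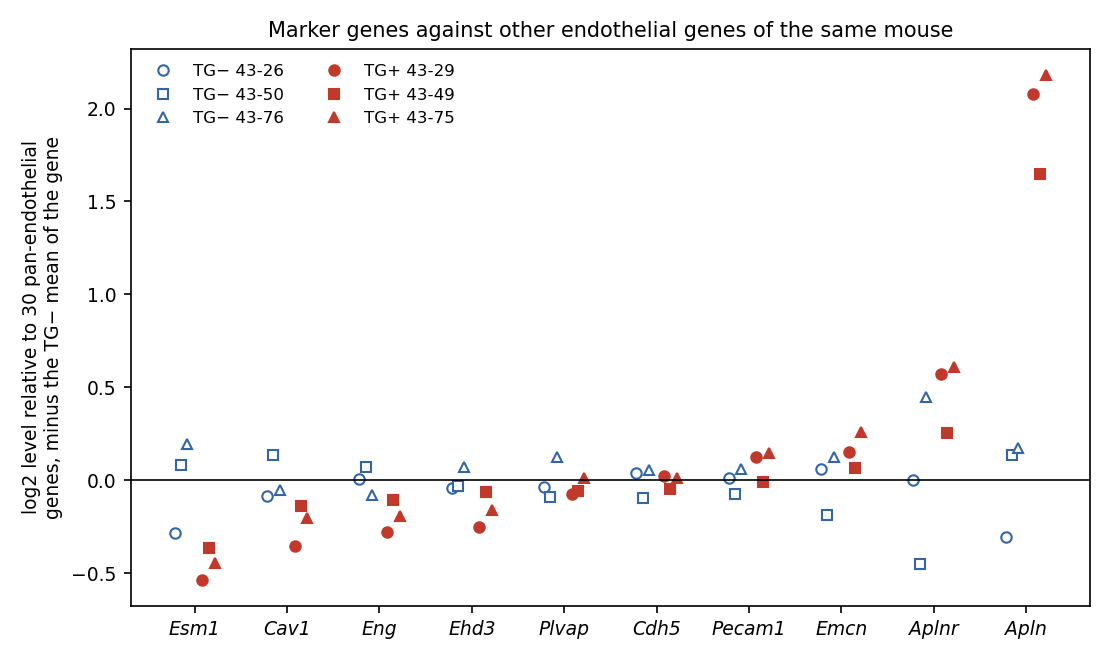
Log2 level of each marker relative to the mean of 30 pan-endothelial genes in the same mouse, with the TG− mean of the gene set to 0 (vertical axis), for 3 TG− (open blue) and 3 TG+ mice (filled red). Apln lies above 0 in every TG+ mouse, Esm1, Cav1, Eng and Ehd3 lie below their TG− range, and the others overlap.

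Apln and Esm1 are both genes of sprouting tip cells. Of 19 such genes, these included, 16 rose and 0 fell, with a median log2 fold change of 0.68 (12 to 15 rose with single mice left out). The threshold of the study was passed by 4, of which Apln was first. The others were Adm (1.58, from 7.17 ± 1.39 to 21.5 ± 2.12 CPM, SD, n = 3), the vasodilator peptide adrenomedullin, Plaur (1.21), the urokinase receptor, and Lama4 (1.11), a laminin chain of vessel basement membrane. Esm1 had the lowest value of the list, and Nid2 (0.28) and Igfbp3 (0.64) were also not called.

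In a list of 9 glomerular endothelial genes with Ehd3, 4 rose and 2 fell, with a median of 0.46. Besides Ehd3, these were Tbx3 (0.59), Fbln2 (0.55) and Plat (0.49), which encodes tissue plasminogen activator. Lpl, lipoprotein lipase, fell by 0.86 (from 1439 ± 274 to 792 ± 64.6 CPM, SD, n = 3), and Mapt fell by 0.27. In TG− mice Lpl alone stood above the summed level of the 30 pan-endothelial genes, which was 807 to 950 CPM. Its fall can thus not be assigned to glomerular endothelium, and the part of other cells in it was not tested. The number that rose was 2 without 43-49, 43-50, 43-75 or 43-76. Podocytes share the glomerulus, and of 7 podocyte genes 1 rose (Synpo, 0.31) and 0 fell, with a median of 0.22. The number that rose was 0 when any mouse but 43-26 was left out. Summed podocyte genes ranged from 263 to 299.6 CPM in TG+ and from 204 to 290.4 CPM in TG− mice.

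Of 10 genes of peritubular capillaries and veins, with Plvap, 9 were tested and 3 rose, with a median of 0.58. Vcam1, a leukocyte adhesion molecule, rose by 1.12 and Il1r1 by 0.41, while Nr2f2, a venous transcription factor, had -0.09 (adjusted p = 0.395 from edgeR). Without 43-29, 43-50 or 43-76 the number was 1. Of 11 arterial genes 4 rose, with a median of 0.44: Gja4 (0.74), Efnb2 (0.54), Dll4 (0.50) and Jag1 (0.38), which encode a connexin, an ephrin and Notch ligands. Mecom was lowest, at 0.07 (adjusted p = 0.452 from edgeR). Without 43-50 the number was 2.

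Markers of other cells of the slice moved as well. Mural and mesangial genes, which mark the cells around endothelium, rose in 8 of 11 cases, with a median of 0.72 and summed levels of 421 to 475 CPM in TG+ and 245 to 282 CPM in TG− mice. Kcnj8, a potassium channel subunit of pericytes, rose 6.48-fold, from 6.37 ± 0.427 to 41.3 ± 6.53 CPM (SD, n = 3, adjusted p = 1.35e-05 from edgeR). Notch3 rose by 1.07, Mcam by 0.82 and Pdgfrb by 0.74, and Abcc9, at 0.37, was lowest and not called. Of 6 fibroblast genes 4 rose, with a median of 0.63 and summed levels of 143 to 210.4 CPM in TG+ and 102 to 128 CPM in TG− mice. Dcn was highest (1.13) and Col1a1 lowest (0.39, not called), and 1 or 2 rose without 43-26, 43-49, 43-75 or 43-76. Of 10 myeloid genes 7 rose, with a median of 0.70 and summed levels of 200.3 to 228 CPM in TG+ and 116 to 159.9 CPM in TG− mice. Cd68 rose by 0.89, Lyz2 was highest (0.91, not called), Adgre1 was lowest (0.35, not called) and 4 rose without 43-29 or 43-75.

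Proximal tubule genes went the other way, with 13 of 20 lower, 0 higher and a median log2 fold change of -0.55, while 10.9% of all genes tested were called lower. Slc22a6, an organic anion transporter, fell by 1.09 (from 1642 ± 91.7 to 771 ± 43.3 CPM, SD, n = 3) and Cyp4b1 by 1.07, while Pck1 was highest at 0.52 and not called. The part of any of these other cell types in the differences of the endothelial markers was not tested.

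**Figure D4:**
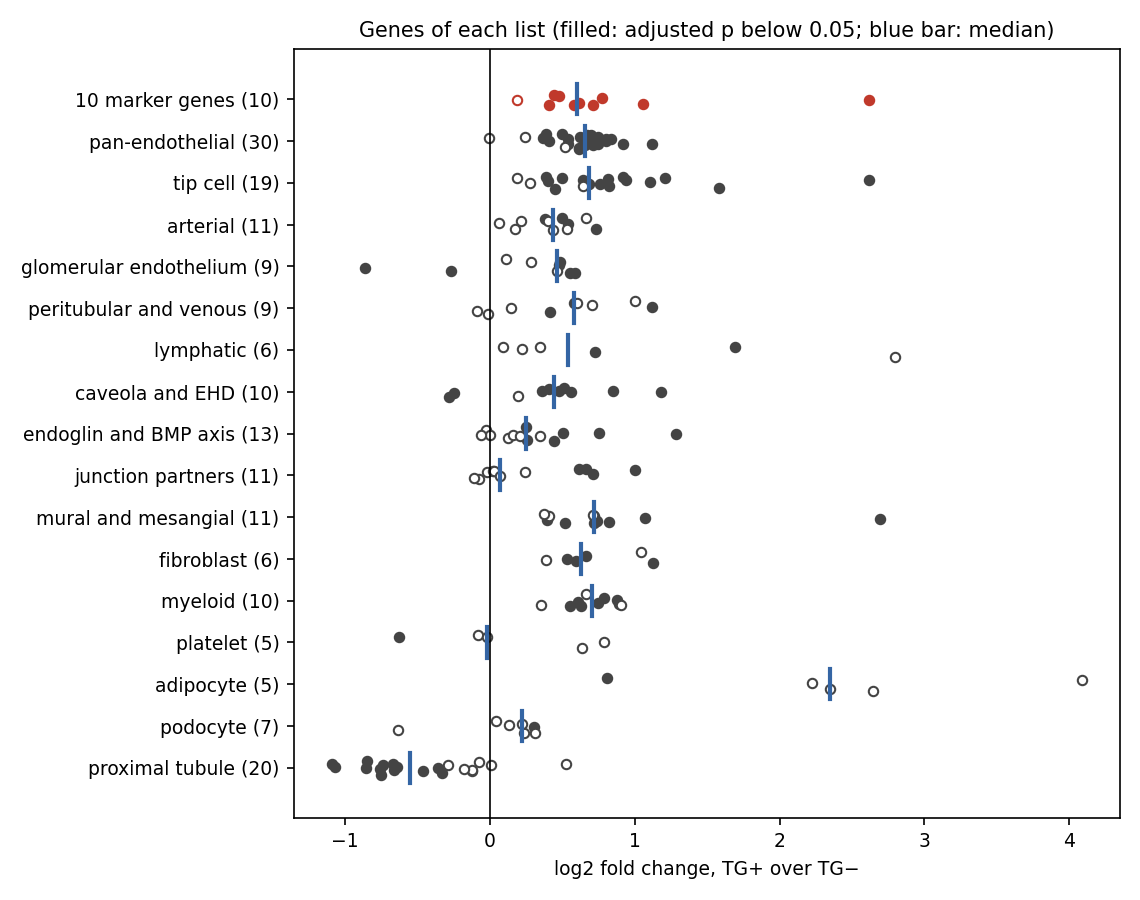
Log2 fold change of TG+ over TG− (horizontal axis) for the tested genes of each list, with the number tested in brackets. Filled points have an adjusted p below 0.05 and the blue bar is the median of the list. The 10 markers (red) have a median of 0.60, near those of the pan-endothelial (0.66), mural (0.72) and myeloid (0.70) lists, whereas that of proximal tubule genes is -0.55.

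Levels of different genes can be compared only per length. From the counts and the exon length in GENCODE release M21, Plvap had the highest level in TG− mice, at 50.6 ± 7.53 RPKM (SD, n = 3), followed by Eng at 29.2 ± 3.43 and Esm1 at 15.8 ± 1.83. Ehd3, Cdh5, Pecam1, Cav1 and Emcn lay between 6.83 and 7.42 RPKM, and neighbours in this order overlapped over mice. Apln at 2.95 ± 0.307 RPKM and Aplnr at 1.34 ± 0.460 were lowest. In TG+ mice Apln came after Plvap and Eng, at 18.1 ± 2.96 RPKM, and its range overlapped that of Esm1, which ran from 16.7 to 19.6 RPKM.

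The order was different for 7 of the 10 markers in the RPKM values that the authors deposited. There, Plvap was also highest and Aplnr lowest in both genotypes, and Plvap, Esm1 and Apln in TG− were within a factor of 1.02 of the values above. For Eng, Pecam1 and Cav1 the deposited TG− means of 8.67, 2.55 and 2.71 RPKM were lower, by factors of 3.37, 2.78 and 2.57, and for Ehd3 the deposited 13.5 RPKM was higher by 1.82. The gene lengths behind the deposited values are not given in the sources used here, so the order of most markers per length is uncertain.

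The genes whose pattern was most like that of the 9 risen markers were sought among 10172 other genes with a mean of at least 10 CPM. Likeness was the root mean square distance over the 6 mice between log2 CPM values, each centred on its mean. The nearest were Srgn (0.036), Mef2c (0.039), Lmo2 (0.050), Myadm (0.051) and Cd34 (0.051), in none of the lists above. Srgn, for example, had 24.1, 25.1 and 27.0 CPM in TG+ and 16.0, 11.9 and 15.2 CPM in TG− mice. Among the markers, Emcn and Pecam1 were nearest to the common pattern, both at 0.08, while Esm1 (0.37) and Apln (0.89) were farthest. That pattern is the mean of the 9 risen markers themselves and leaves out Esm1, so the order of the markers is partly set by this choice. The 6 mice share the genotype contrast, so these distances describe these animals only.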

How the data were processed

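RNAseq was performed by the authors on kidney cortex from 6 mice (51-bp single-end reads, 12 libraries), analysed mainly with the Tuxedo tools. The submitters' processing notes name the build mm9; the counting program, annotation release and strand handling are not given in the sources used here. The authors deposited raw read counts per Ensembl gene and library, and RPKM values, whose columns carry the tag BUQ without an explanation. The deposited log2 RPKM columns and the authors' own fold changes, averages, p-values and q-values were not used. Symbols came from GENCODE M21 (GRCm38), matched by identifier for 86.6% of 37681 genes, and no coordinates were converted.

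Counts of the 2 kidneys were summed per mouse, filtered with filterByExpr, TMM-normalized and tested in edgeR 4.0.16 (limma 3.58.1, R 4.3.3; glmQLFit and glmQLFTest, no covariates), 3 against 3, over 19399 genes. Relative levels used log2 CPM with a prior count of 0.5. DESeq2 1.42.0 was an alternative. Plots were made with Python 3.11.15 and matplotlib 3.10.9.

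The markers and the gene lists were chosen with earlier results of these data known. All 10 markers are named. From each list, up to 4 called genes with the largest change and the highest and lowest gene are named. Values of some listed genes are not reported here. Other genes (Gp1bb, Gp1ba, Ppbp, Adipoq, Cldn5, Tal1, Apela and the remaining values given) were chosen after their values were seen. Intervals for counting error were not computed. P-values of edgeR set the difference between the genotypes against the spread between these mice, estimated with the help of all genes tested. Those of the permutation test rest on the assignments of mice to groups alone.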

Additional observations from a re-analysis of the deposited data

How the results depend on the processing

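The number of markers called at an adjusted p below 0.05 was 9 under DESeq2, without a filter on low counts, with each kidney as its own library, with a single kidney per mouse and under other scalings, and 8 to 9 with each mouse left out in turn. At an adjusted p below 0.01 it was 5. In the fit used here, 26.2% of all genes tested were called at an adjusted p below 0.05, in either direction. The share of all genes was not computed for the alternatives in this paragraph, so their counts have no such measure beside them. At the threshold of the study the number was 1 (Apln), and 2 (Apln and Aplnr) under DESeq2, without the filter, with each kidney as its own library, with kidney 2 alone and in the replicate block; it was 5 at an adjusted p below 0.05 with a fold above 1.5. The block paired the mice 49 with 50, 26 with 29 and 75 with 76, as the name of the deposited table lists them. That name also calls them pairs. With the block, 9 markers were called at an adjusted p below 0.05. Deviations from the group means had r = 0.33, 0.39 and -0.02 in these pairs. With 3 mice per group such values cannot decide whether the mice are paired, and the fit used here has no block. All 10 markers stayed above 0 in every alternative, Esm1 between 0.11 and 0.31. Scaling by library size alone moved the median log2 fold change of all genes from 0.01 to 0.13. Mouse 43-50 was the lowest TG− mouse for 7 of the 10 markers. Kidney 1 and kidney 2 alone gave Apln 2.58 and 2.67.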

Other observations

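Lymphatic and red cell genes were read beside the markers. Of 7 lymphatic endothelial genes 6 were tested and 2 rose: Reln, or reelin, at 3.80, 4.04 and 3.62 CPM in the TG+ mice 43-29, 43-49 and 43-75 and 1.17, 1.24 and 1.13 CPM in the TG− mice 43-26, 43-50 and 43-76 (log2 fold change 1.69, adjusted p = 1.28e-04 from edgeR), and Flt4, the receptor VEGFR3, which rose by 0.73. Lyve1 had the highest value, 2.80, but did not pass (adjusted p = 0.0697 from edgeR). It stood at 1.11 and 2.35 CPM in 43-49 and 43-75 and at 0.350 CPM or less in the other mice. Pdpn was lowest, at 0.09. Of 5 red cell genes 2 were tested, and Alas2, the erythroid enzyme of haem synthesis, rose by 0.75, while Hba-a1 had 0.351 CPM or less in every mouse.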
